A study of Mus musculus with 24 samples.

Results

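The comparison described here is the maturation of wild-type mouse retina between postnatal day 2 (P2) and postnatal day 10 (P10). It rests on 8 of the 24 arrays of the study, the 4 arrays titled WT P10 against the 4 titled WT P2, and on all 12422 probe sets that are not array controls. The study measured total RNA of whole retina, extracted with Trizol and labelled with biotin, on Affymetrix oligonucleotide arrays. Wild-type mice and mice without Nrl (Nrl-/-) were sampled at P2, P10 and 2 months of age, with 4 samples in each of the 6 groups. Both genotypes shared a mixed R1 and C57BL/6 background. The labels do not say whether a sample was 1 animal or a pool, and the spread that the p-values rest on, that between these samples, may therefore be technical.

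At birth the mouse retina still holds dividing progenitor cells, which use Notch signalling and basic helix-loop-helix factors to balance division against differentiation. In the days that follow, the last progenitors divide and leave the cell cycle, mostly as rods, bipolar cells and Müller glia, the resident glial cells. Rods then build the outer segment, a stack of membrane discs that holds the phototransduction cascade: light activates an opsin, the G protein transducin activates a phosphodiesterase that removes cyclic GMP, and cyclic GMP-gated channels close. Crx and Nrl are the transcription factors best known for switching on photoreceptor and rod genes, and the synapses of the outer and inner plexiform layers form over the same period.

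Values are RMA intensities on a linear scale (RMA is a background correction, normalisation and summary of the probes of a probe set). Changes are P10 minus P2 on the log2 scale with their standard error, from limma, and the threshold for a call was an adjusted p of 0.05 after Benjamini-Hochberg correction over all 12422 probe sets. The 8 arrays had median intensities of 65.7 to 71.3. Pearson correlations across probe sets were 0.993 to 0.996 among the P2 arrays, 0.993 to 0.997 among the P10 arrays and 0.956 to 0.967 between ages. Ratios of 3-prime over 5-prime control probe sets were 0.842 to 1.13 at P2 and 0.839 to 0.875 at P10 for Gapdh (exact permutation p = 0.143, two-sided). For Actb they were 1.42 to 1.64 and 1.51 to 1.68 (exact permutation p = 0.229, two-sided). The yeast control probe sets, which match no mouse transcript, read 8.22 to 17.5 on these arrays, and the files give no detection calls, so the size of a fold is uncertain for a gene in that range. P2 replicate 1 stood apart in lens crystallin signal: the summed intensity of 11 lens genes was 2639 there, 797 to 860 on the other P2 arrays and 826 to 1335 at P10. Without that array the rod list below had 12 called rises, the mitosis list 37 called falls and the retinal progenitor list 28. Xist, the non-coding RNA of the inactive X chromosome, read 7.43 and 9.35 on P2 replicates 1 and 2 and 73.6 to 126 on the other 6 arrays. Low Xist thus occurred only at P2. The sex of the animals may be uneven between the ages, and its part in the changes was not tested. If arrays of the same age were processed together, age and processing cannot be told apart.

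From P2 to P10, 4187 probe sets were called, 33.7% of those tested. Of these 2032 were higher at P10 (16.4%) and 2155 lower (17.3%). With arrays weighted by their quality these counts were 3273 and 2415. They were 2228 and 2214 with quantile normalisation and 2251 and 2002 without P10 replicate 1. Which direction held more calls therefore depended on such choices. A called change of at least 2-fold was found in 262 probe sets that rose (2.11%) and 330 that fell (2.66%). Taking each gene by its brightest probe set, 1556 of 8251 genes were called higher (18.9%) and 1635 lower (19.8%), and the median change of all genes was 0.04. The shares of 18.9% and 19.8% are the background for the list counts below. In 3069 genes (37.2%) the 4 values at one age all lay on one side of the 4 at the other. At least 2-fold higher were 210 genes (2.55%) and at least 2-fold lower 265 (3.21%). The largest called rises were those of rod and outer segment genes, led by Gnat1, and the largest called falls those of cell cycle genes, led by Ccnd1. In whole-retina RNA, a change in the number of cells of a type and a change in the RNA of each cell cannot be told apart.

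**Figure D1:**
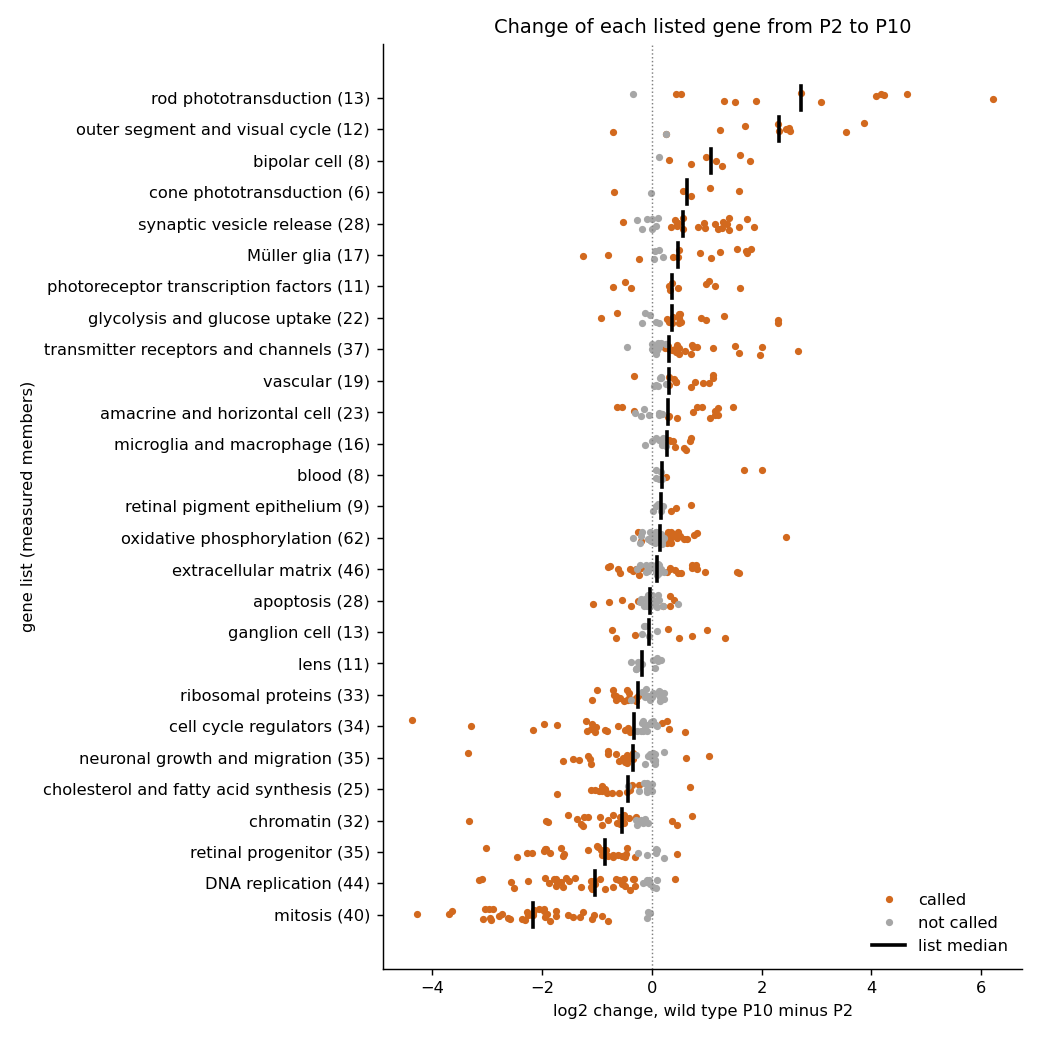
Log2 change from P2 to P10 of each measured member of 27 gene lists, with the number of measured members in brackets; coloured points were called at an adjusted p under 0.05, grey points were not, and the black bar is the list's median. Rod phototransduction (median 2.71) and outer segment genes (2.31) lie at the top and mitosis genes (-2.15) and DNA replication genes (-1.04) at the bottom; points are spread vertically at random.

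Rod phototransduction genes had the highest median of the 27 lists by brightest probe sets, while by the mean of each gene's probe sets outer segment genes were above them (medians 2.00 and 1.90). Of 13 measured members 12 were called higher and none lower, with a median change of 2.71. Gnat1, the alpha subunit of rod transducin, read 13.1, 12.8, 25.9 and 15.2 at P2 and 1699, 1216, 1356 and 725 at P10. The P2 values lay at or just above the level of the yeast controls and the lowest P10 value was far above them. Its log2 change was 6.22 ± 0.35 (adjusted p = 1.79e-14), a 74.4-fold difference whose size is uncertain for that reason. The rod phosphodiesterase, which removes cyclic GMP, was measured through 3 subunits. Pde6b, a catalytic subunit, read 43.0, 45.3, 51.8 and 44.0 at P2 against 1182, 1197, 1055 and 1158 at P10 (25.0-fold, adjusted p = 3.49e-21). Another Pde6b probe set rose less, from 65.6 ± 4.64 at P2 to 268 ± 47.0 at P10 (mean ± SD). Its log2 change was 2.02 (adjusted p = 2.10e-12), beside 4.64 for the brightest. The size of the Pde6b rise thus depended on the probe set. Pde6g, the inhibitory subunit, went from 176, 212, 193 and 189 to 3979, 3502, 3517 and 3479 (18.8-fold, adjusted p = 3.92e-24). Pde6a, the other catalytic subunit, rose less, from 53.0 to 73.0 at P2 to 116 to 186 at P10 (2.48-fold, adjusted p = 9.55e-08). The ages did not overlap in any of the 3 subunits.

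Downstream of the phosphodiesterase, Cnga1, the alpha subunit of the rod cyclic GMP-gated channel, read 17.1, 16.6, 18.6 and 19.4 at P2 and 146, 187, 149 and 134 at P10. The change was 3.09 ± 0.10 (adjusted p = 1.46e-19), from a P2 level close to that of the yeast controls. Genes of proteins that regulate the cascade also rose. Rcvrn (recoverin, the calcium sensor of rhodopsin kinase) went from 50.2, 66.8, 64.9 and 59.9 to 1076, 1233, 1126 and 928, a change of 4.17 ± 0.11 (adjusted p = 3.34e-21). Sag (rod arrestin) went from 157, 283, 255 and 284 to 3579, 4148, 4470 and 3952, a change of 4.08 ± 0.17 (adjusted p = 4.78e-17). Pdc (phosducin, which binds transducin beta-gamma) was already at 344 to 415 at P2 and stood at 2362 to 2593 at P10 (6.56-fold, adjusted p = 2.94e-18). Its second probe set was not called (272 ± 36.1 and 257 ± 19.4, mean ± SD, n = 4, adjusted p = 0.764).

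Smaller rises were found in the regulators of recovery. Gnb5 and Rgs9, which together speed the shut-off of transducin, rose by 1.90 ± 0.10 and 0.54 ± 0.10 (adjusted p = 2.48e-15 and 4.19e-05). Guca1a, an activator of guanylate cyclase, went from 69.2 to 155 at P2 to 226 to 328 at P10, a rise of 1.52 ± 0.19 (adjusted p = 2.24e-07). Gucy2e, a photoreceptor guanylate cyclase, rose by 0.44 ± 0.08 (adjusted p = 8.60e-05). Gnb1, the beta subunit of rod transducin, was the member not called: its brightest probe set read 187 to 247 at P2 and 122 to 201 at P10 (change -0.34, adjusted p = 0.0976). That probe set was called lower with the replicate block (0.0225 on the arrays compared, 0.0440 over all 24), with only the groups compared (0.0479) and without P10 replicate 4 (0.0441). Another Gnb1 probe set gave 54.6 ± 4.64 at P2 and 187 ± 7.79 at P10 (mean ± SD, n = 4; change 1.78, adjusted p = 9.30e-13), and another was not called (change -0.27, adjusted p = 0.296). The mean of the Gnb1 probe sets was called higher (change 0.39, adjusted p = 0.0176), so no direction is given for this gene.

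**Figure D2:**
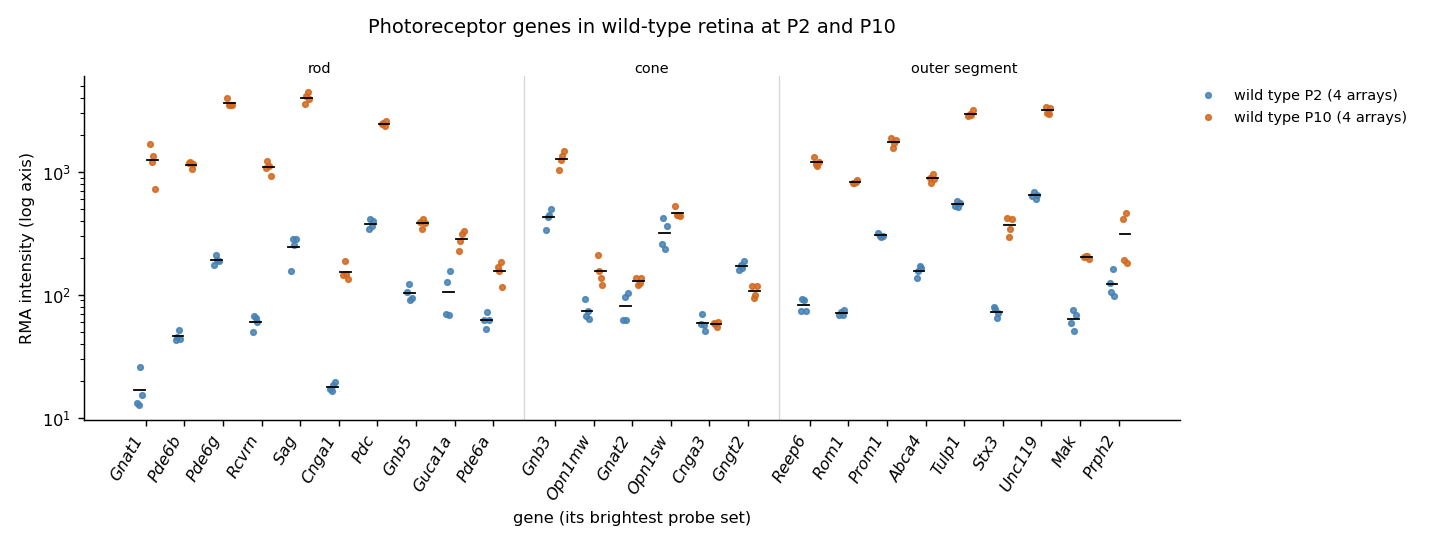
RMA intensity (log axis) of rod, cone and outer segment genes on the 4 P2 and 4 P10 wild-type arrays; each point is 1 array and each bar a group mean. Rod and outer segment genes separate widely by age (Gnat1 12.8 to 25.9 against 725 to 1699), while Cnga3 overlaps and Gngt2 is lower at P10.

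Because 12 rod genes rose together, the 250 bases before the start of their transcripts were searched for motifs known to bind Crx (TAATCC) and Nrl (core motif TGCTGA) on both strands. The sequences are RefSeq's for build GRCm38.p6, from a table of 27025 genes, taking the first start listed for a gene. Of the 12 rod genes called higher, 8 had an entry: 5 held the Crx-type motif, which 6.38% of all promoters hold, and 3 the Nrl core motif, which 15.8% hold. Among 9 raised outer segment genes with an entry, 1 held the Crx-type motif and none the Nrl core motif. Among 3 raised cone genes, 1 held each. The upstream sequences of a rod gene with both motifs and of one with each are shown with these motifs in capitals. They lie at chr1:87803430-87803679 on the plus strand (Sag), chr5:72642753-72643002 on the minus strand (Cnga1) and chr5:108388123-108388372 on the plus strand (Pde6b).
Sag: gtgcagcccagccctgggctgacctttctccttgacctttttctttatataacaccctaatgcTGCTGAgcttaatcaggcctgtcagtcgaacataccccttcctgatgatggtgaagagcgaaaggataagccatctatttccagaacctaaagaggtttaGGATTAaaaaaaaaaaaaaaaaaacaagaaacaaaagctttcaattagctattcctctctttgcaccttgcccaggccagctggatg
Cnga1: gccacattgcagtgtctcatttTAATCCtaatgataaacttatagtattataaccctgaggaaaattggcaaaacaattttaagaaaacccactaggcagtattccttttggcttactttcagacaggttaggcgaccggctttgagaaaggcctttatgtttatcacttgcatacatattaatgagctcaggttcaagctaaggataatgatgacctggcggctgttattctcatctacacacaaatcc
Pde6b: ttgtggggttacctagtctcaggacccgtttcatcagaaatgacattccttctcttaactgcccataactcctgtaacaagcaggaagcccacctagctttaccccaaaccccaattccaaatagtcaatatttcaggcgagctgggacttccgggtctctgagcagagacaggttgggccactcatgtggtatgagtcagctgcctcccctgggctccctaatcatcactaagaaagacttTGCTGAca
In Sag the Crx-type motif is read on the other strand and starts 87 bases before the transcript start; in Pde6b the Nrl core motif starts 8 bases before it. A match is a string of letters in this window and no measure of binding.

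Cone phototransduction genes changed less and not all in one direction. Of 6 measured members 4 were called higher and 1 lower, with a median change of 0.64. Gnb3, the beta subunit of cone transducin, also used by ON bipolar cells, rose from 336, 428, 447 and 500 to 1046, 1248, 1354 and 1489 (3.01-fold, adjusted p = 5.75e-10). The M-opsin gene Opn1mw rose from 63.1 to 93.4 at P2 to 121 to 211 at P10 (2.09-fold, adjusted p = 8.05e-06). Opn1sw, the S-opsin gene, was already at 259, 423, 238 and 361 at P2 and read 529, 443, 445 and 438 at P10 (1.48-fold, adjusted p = 4.72e-04). All 4 P10 values lay above the P2 values, by a narrow margin. Gnat2, the cone transducin alpha subunit, rose from 63.0 to 103 to 121 to 138 (1.64-fold, adjusted p = 5.96e-05). Cnga3, the cone channel subunit, read 51.2 to 69.7 and 54.4 to 60.7 (change -0.01, adjusted p = 0.944). Gngt2, the cone transducin gamma subunit, fell from 160, 174, 166 and 189 to 118, 94.6, 100 and 118 (change -0.68, adjusted p = 8.19e-08).

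Outer segment and visual cycle genes rose as well. Of 12 measured members 10 were called higher and 1 lower, with a median of 2.31. Reep6, a membrane-shaping protein of rods, went from 74.4, 92.7, 90.2 and 73.5 to 1332, 1163, 1114 and 1217 (14.6-fold, adjusted p = 1.34e-22). Rom1, which with peripherin shapes the disc rim, went from 68.6, 73.0, 68.2 and 75.3 to 809, 815, 825 and 858 (11.6-fold, adjusted p = 4.30e-20). The ages were wide apart in both genes. Prom1, a protein of growing discs, rose 5.72-fold. Abca4, the transporter that clears retinal from discs, rose 5.65-fold, and Tulp1, which takes part in transport to the outer segment, 5.41-fold. Stx3, a membrane fusion protein of photoreceptors, rose 5.0-fold, Unc119, a carrier of lipid-modified proteins such as transducin, 4.93-fold and Mak, a kinase of the connecting cilium, 3.24-fold. Prph2 (peripherin) was split within P10: its arrays read 125, 106, 163 and 97.9 at P2 and 416, 194, 465 and 181 at P10 (change 1.25 ± 0.33, adjusted p = 0.00367). Replicates 1 and 3 were the higher ones at P10. Kif3a, a motor of ciliary transport, fell from 39.3 to 53.5 to 26.1 to 36.6 (change -0.70, adjusted p = 5.22e-05). Rpgr was not called (change 0.26, adjusted p = 0.182; 0.0314 with the replicate block on the arrays compared). The cilium gene Ift88 was called with overlapping values (411 to 484 against 477 to 598, change 0.26), and its adjusted p was 0.0851 without P10 replicate 2, 0.0655 without P10 replicate 3, 0.0701 without P2 replicate 2, 0.0534 with the replicate block on the arrays compared and 0.0970 for the mean of its probe sets.

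The 11 measured transcription factors of photoreceptors were all called, 8 higher and 3 lower (median 0.37). Crx, the factor shared by rods and cones, read 663, 659, 604 and 557 at P2 and 2045, 1860, 1726 and 1941 at P10 (3.05-fold, adjusted p = 7.82e-16). Nrl, the rod fate factor whose gene the study deleted, read 61.5, 60.1, 60.1 and 59.9 at P2 and 128, 123, 135 and 156 at P10 (2.23-fold, adjusted p = 7.85e-10). In the knockout the same probe set read 51.3 ± 5.13 at P2 and 49.7 ± 5.18 at P10 (mean ± SD, n = 4), which was not called (change -0.05, adjusted p = 0.777). The wild-type P2 values of Nrl lay not far above these knockout values, so the size of the wild-type fold is uncertain. Rora and Mef2d, both activators of photoreceptor genes, rose by 1.05 ± 0.13 and 0.99 ± 0.09. Neurod1, a photoreceptor survival factor, rose by 0.47 ± 0.10 (adjusted p = 4.07e-04). Rxrg and Tbx2, which act in cone opsin choice and cone fate, fell by 0.37 and 0.48 on the log2 scale. Prdm1, which holds early photoreceptor precursors from the bipolar fate, fell from 194, 242, 177 and 197 to 117, 111, 114 and 157 (change -0.71, adjusted p = 6.23e-06). For 3 members the call depended on single arrays. Esrrb (change 0.37) had an adjusted p of 0.0519 to 0.0824 without P10 replicate 2 or 3 or P2 replicate 3. Mef2c (0.34) had 0.0585 without P10 replicate 3. Thrb, the thyroid hormone receptor of cones (0.32), had 0.121 without P10 replicate 1, 0.0743 without P2 replicate 3 and 0.0964 without P2 replicate 4, and its ages overlapped.

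Cell cycle genes showed the largest falls. Among 34 measured regulators of the cycle 17 were called lower and 4 higher (median -0.33). Ccnd1, cyclin D1, the main D-type cyclin of retinal progenitors, had the largest fall of any gene: 1904, 2162, 2142 and 2391 at P2 and 98.5, 108, 89.5 and 122 at P10. That is a change of -4.37 ± 0.10, or 20.6-fold lower (adjusted p = 8.56e-23), between groups far apart. This ranking is by brightest probe sets. A second Ccnd1 probe set fell less, from 491 ± 204 to 101 ± 7.03 (mean ± SD, n = 4). Its change was -2.18 (adjusted p = 4.35e-11), so the size of the Ccnd1 fall depended on the probe set. Cdk4, the partner kinase of cyclin D1, fell from 1540, 1620, 1368 and 1559 to 461, 429, 409 and 553 (3.30-fold, adjusted p = 9.92e-16). Myb, a proliferation factor, fell from 951 to 1120 to 82.8 to 151 (9.77-fold), Mycl, a Myc family member, 4.50-fold, Mycn 2.04-fold and Rbl1, the pocket protein p107, 3.89-fold. E2f1 and Cdk2, which drive entry into S phase, fell by 1.18 and 1.09 on the log2 scale, and Foxm1, the activator of mitotic genes, fell by 1.02. Cdkn2c, a Cdk4 inhibitor, fell by 1.19 and Gadd45g, a growth arrest gene of newborn neurons, fell by 1.11.

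The Cip and Kip inhibitors, which hold cells out of the cycle, were not called. Cdkn1a read 140 to 173 and 141 to 166 (change 0.03, adjusted p = 0.841), although a second probe set was called lower (change -0.27, adjusted p = 0.00486). Cdkn1b read 35.0 to 51.7 and 35.5 to 41.6 (change -0.16, adjusted p = 0.374), and Cdkn1c 182 to 216 and 172 to 194 (change -0.18, adjusted p = 0.223). Of the 4 regulators called higher, Ccng1 (cyclin G1) rose from 36.7 to 42.0 to 57.2 to 61.6 (change 0.61, adjusted p = 2.06e-05). The other 3 had small changes whose calls depended on single arrays, and for Rbl2 and Ccnd3 also on the processing. Rbl2, a pocket protein of resting cells, changed by 0.32 (adjusted p = 0.0769 without P10 replicate 4, 0.0510 and 0.0530 without P2 replicates 2 and 3). Quantile normalisation gave Rbl2 an adjusted p of 0.0843. E2f3 changed by 0.28 (0.0725 without P2 replicate 4). Ccnd3, cyclin D3, changed by 0.19 (0.0649 without P10 replicate 4, 0.0633 and 0.0504 without P2 replicates 2 and 3). Its adjusted p was 0.0568 with median centring, 0.0755 with only the groups compared and 0.0904 with the replicate block on them.

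DNA replication genes fell as a list: 35 of 44 measured members were called lower and 1 higher, with a median of -1.04. Rrm2, a subunit of ribonucleotide reductase, which makes DNA precursors, read 267, 255, 239 and 277 at P2 and 29.8, 31.4, 28.0 and 27.8 at P10 (8.87-fold, adjusted p = 6.81e-21). The replicative helicase subunits Mcm5, Mcm3 and Mcm7 fell 8.57-fold, 5.95-fold and 3.66-fold. For Mcm5 the values were 702, 715, 715 and 793 at P2 and 75.2, 92.2, 81.4 and 93.6 at P10, while a second, dimmer probe set was not called (change 0.23, adjusted p = 0.131). Cdc6, which loads the helicase, fell 5.65-fold, and Gmnn (geminin), which blocks a second loading, 3.86-fold. Uhrf1, which passes on DNA methylation at replication forks, fell 4.79-fold and Pold1, the catalytic subunit of DNA polymerase delta, 3.44-fold. Rpa1, the single-strand binding protein also used in repair, was the one member called higher, from 216 to 259 to 294 to 344 (change 0.43, adjusted p = 7.73e-05).

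Mitosis genes had the lowest median of the 27 lists, -2.15, with 37 of 40 measured members called lower, 35 of them by at least 2-fold, and none higher. Mki67, the proliferation marker Ki-67, read 231, 285, 282 and 307 at P2 and 11.1, 14.7, 15.9 and 15.4 at P10. The P10 values lay within the range of the yeast controls, so the 19.4-fold difference (change -4.28 ± 0.12, adjusted p = 9.98e-21) has an uncertain size. A second Mki67 probe set read 29.6 ± 5.03 and 29.5 ± 2.15 (mean ± SD, n = 4). Top2a, which untangles chromosomes, fell from 333, 411, 335 and 402 to 29.0, 32, 27.4 and 26.0 (12.9-fold). Cks2, a subunit of cyclin-dependent kinases, fell from 612, 650, 589 and 688 to 51.4, 48.0, 48.9 and 56.7 (12.4-fold). All of these groups were far apart. Cdk1, the mitotic kinase, fell 8.37-fold, and Cdc20, the activator of the anaphase-promoting complex, 8.20-fold. The condensin subunits Smc2 and Ncaph fell 7.82-fold and 7.61-fold and Birc5 (survivin) 7.69-fold. The 3 members not called, named here after their values were seen, were Pttg1 (securin; 231 to 248 and 225 to 242), Ube2c (59.6 to 82.5 and 65.6 to 72.0) and Cenpe, which stayed at the level of the yeast controls (9.64 to 11.3 and 8.72 to 11.2). Nusap1, a spindle protein of this list, fell 7.49-fold, while its dim second probe set was not called (change -0.24, adjusted p = 0.0582). Outside the lists, the 20 largest falls also held Cdca8 (borealin, 8.13-fold), Pclaf (a partner of the replication clamp, 7.48-fold), Trim59 (9.62-fold) and Csrp2 (a LIM domain protein, 7.50-fold).

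**Figure D3:**
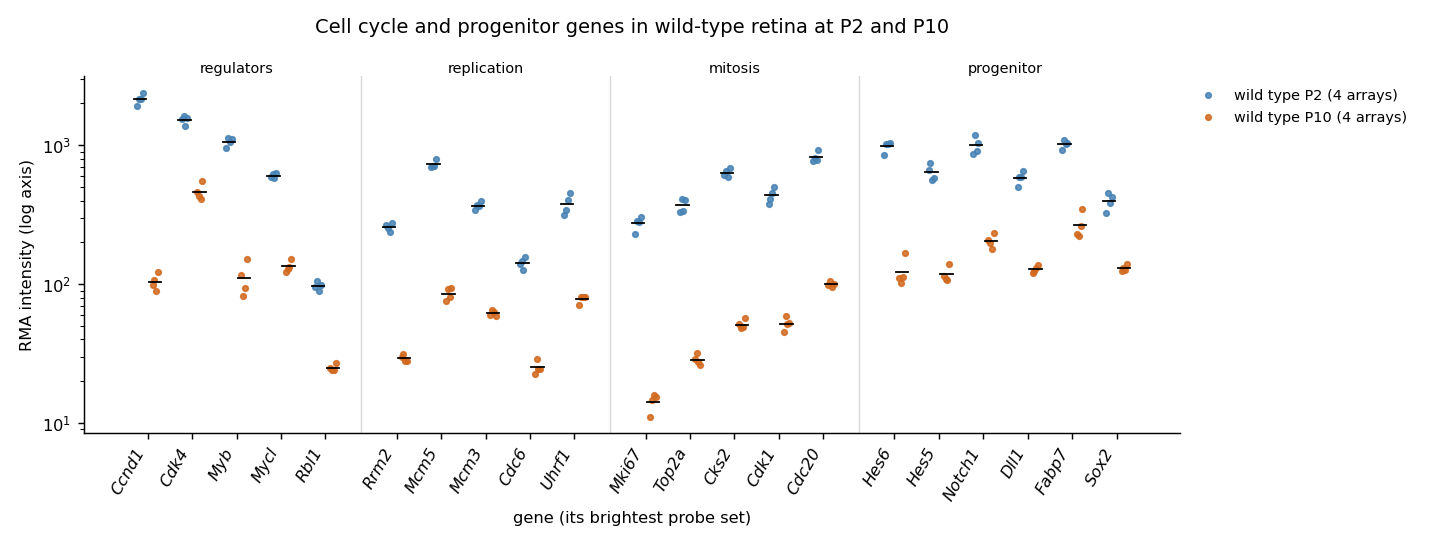
RMA intensity (log axis) of cell cycle regulators, replication, mitosis and progenitor genes on the 4 P2 and 4 P10 wild-type arrays; each point is 1 array and each bar a group mean. In every gene drawn the P10 values lie below the P2 values, most widely in Ccnd1 (1904 to 2391 against 89.5 to 122).

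Promoters of the fallen replication and mitosis genes were searched in the same 250-base window for 3 motifs known from cell cycle genes: the E2F motif (TTCCCGC or TTGGCGC), the cell cycle genes homology region or CHR (TTTGAA) and the CCAAT box (CCAAT), on both strands. TTGGCGC read on the other strand ends in CCAA, so an E2F match can share letters with a CCAAT box. Of 31 fallen replication genes with an entry 11 held the E2F motif, 3 the CHR and 20 a CCAAT box. Of 29 fallen mitosis genes with an entry, 2 held the E2F motif, 12 the CHR and 22 a CCAAT box. Among all promoters 5.71% held the E2F motif, 16.3% the CHR and 34.5% a CCAAT box. These shares describe the lists and were not tested. A replication gene (Mcm5, chr8:75109259-75109508, plus strand) and the mitosis genes Cdk1 (chr10:69352913-69353162, minus strand) and Cdc20 (chr4:118437344-118437593, minus strand) are shown with all 3 motifs in capitals.
Mcm5: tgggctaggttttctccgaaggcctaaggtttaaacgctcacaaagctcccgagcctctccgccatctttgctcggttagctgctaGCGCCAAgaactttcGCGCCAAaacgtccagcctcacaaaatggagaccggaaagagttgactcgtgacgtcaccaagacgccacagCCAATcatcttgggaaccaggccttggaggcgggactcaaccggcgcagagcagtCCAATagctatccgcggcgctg
Cdk1: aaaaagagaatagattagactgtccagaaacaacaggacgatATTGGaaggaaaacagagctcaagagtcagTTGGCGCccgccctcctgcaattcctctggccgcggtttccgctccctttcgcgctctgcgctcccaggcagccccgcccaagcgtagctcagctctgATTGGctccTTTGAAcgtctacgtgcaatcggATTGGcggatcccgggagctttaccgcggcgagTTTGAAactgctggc
Cdc20: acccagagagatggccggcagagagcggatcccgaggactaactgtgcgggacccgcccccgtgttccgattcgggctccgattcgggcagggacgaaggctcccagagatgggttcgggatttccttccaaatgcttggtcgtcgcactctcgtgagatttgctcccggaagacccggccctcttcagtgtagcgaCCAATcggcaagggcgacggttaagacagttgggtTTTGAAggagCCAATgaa
Mcm5 holds 2 E2F matches and 2 CCAAT boxes and no CHR. Cdk1 holds 1 E2F match, 2 CHR matches and 3 CCAAT boxes, and Cdc20 holds 1 CHR match and 2 CCAAT boxes.

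Genes of retinal progenitors fell with the cell cycle. Of 35 measured members 28 were called lower and 1 higher, with a median of -0.86. Hes6, a helix-loop-helix factor of differentiating precursors, read 846, 1020, 1029 and 1030 at P2 and 110, 102, 113 and 168 at P10 (8.09-fold, adjusted p = 7.08e-18). Hes5, a Notch target, went from 666, 750, 565 and 585 to 114, 109, 108 and 139 (5.46-fold, adjusted p = 1.92e-14). The receptor gene Notch1 went from 859, 1190, 904 and 1038 to 208, 198, 179 and 234 (4.85-fold, adjusted p = 5.25e-17). In each of them the ages lay far apart. The ligand Dll1 fell 4.54-fold by its brightest probe set, while a probe set near the yeast control level moved the other way (13.6 ± 1.12 to 16 ± 1.29, mean ± SD, n = 4, adjusted p = 0.0154). Hes1, another Notch target, fell 3.13-fold. Notch2 and Notch3 were not called (changes 0.23 and -0.08); Notch2 was called higher with array weights (adjusted p = 0.00272) and without P10 replicate 1 (0.0307), although a dim Notch2 probe set was called lower (change -0.36, adjusted p = 0.00151).

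Among the proneural genes Neurog2 fell 3.82-fold and Atoh7, needed for ganglion cells, 1.81-fold, whereas Neurod4 was not called (change -0.26, adjusted p = 0.0575), although 8 alternatives called it lower (adjusted p = 0.0199 to 0.0466). Fabp7, a fatty acid-binding protein of radial glia and progenitors, fell from 929, 1088, 1017 and 1042 to 231, 223, 262 and 348 (3.89-fold, adjusted p = 2.28e-12). The progenitor transcription factors moved to different degrees: Zic1 fell 3.85-fold, Sox2 3.04-fold, Rax 1.84-fold, Six3 1.78-fold and Pax6, which amacrine and ganglion cells keep, 1.73-fold. The intermediate filament Nes (nestin) fell 3.06-fold, the Wnt modulator Sfrp2 3.62-fold, and Fgf15 and Gli1, both linked to hedgehog signalling in progenitors, fell 2.25-fold and 1.99-fold. Id1, Id2 and Id3, which block helix-loop-helix factors, fell 1.98-fold, 1.90-fold and 1.36-fold, while their relative Id4 rose from 133 to 168 to 188 to 229 (change 0.45, adjusted p = 0.00103).

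Chromatin genes changed in part with these. Of 32 measured members 22 were called lower and 3 higher (median -0.55). Hmgb2, a DNA-bending protein of dividing cells, fell from 90.4, 127, 120 and 118 to 11.6, 11.2, 9.77 and 12.4, a level within the yeast control range (10.1-fold, adjusted p = 1.37e-17). Ezh2, the methyltransferase of Polycomb repressive complex 2, fell 3.77-fold, the histone variant H2az1 3.70-fold, Hells, a chromatin remodeller, 2.87-fold and Hmgb3 2.59-fold. Anp32b fell 2.45-fold and the histone chaperone Nasp 2.40-fold, and Smarcc1, a subunit of the BAF remodelling complex, 2.36-fold. Hmgn1, a nucleosome-binding protein, was called higher, from 3044, 3337, 3248 and 3193 to 6028, 5001, 5355 and 5116 (change 0.74, adjusted p = 1.72e-10). Anp32e rose by 0.45 and Anp32a by 0.36, the latter by its brightest probe set alone (adjusted p = 0.405 for the mean of its probe sets).

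Neuronal growth and migration genes fell in 19 of 35 measured members and rose in 2 (median -0.34). Sox11 and Sox4, factors of newly born neurons, fell 10.2-fold and 3.07-fold. Sox11 read 492, 532, 739 and 608 at P2 and 50.0, 51.2, 63.5 and 66.3 at P10. Marcks, an actin-linked growth cone protein, fell 2.70-fold, Stmn1 (stathmin, a microtubule destabiliser) 2.52-fold, the ephrin Efnb2 2.23-fold, Nnat (neuronatin) 2.17-fold and Dcx (doublecortin) 2.16-fold. Map2, the dendritic microtubule protein, and Stmn3 rose by 1.05 ± 0.20 and 0.63 ± 0.07.

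Genes of the synapse rose. Of 28 measured genes of synaptic vesicle release 20 were called higher and 1 lower (median 0.57). Syt1, the calcium sensor of release, read 133, 126, 82.2 and 104 at P2 and 514, 368, 367 and 368 at P10 (3.66-fold, adjusted p = 1.84e-08). Dnm1, the dynamin of vesicle retrieval, went from 418, 463, 470 and 464 to 1382, 1595, 1512 and 1548 (3.33-fold, adjusted p = 4.46e-15). The ages did not overlap in either. The fusion proteins Snap25 and Vamp2 rose 2.66-fold and 2.41-fold, Nsf, which takes the fusion complex apart, 2.58-fold and the vesicle protein Syp (synaptophysin) 2.47-fold. Unc13b, which primes vesicles, rose 3.02-fold and the calcium-binding protein Doc2b 2.66-fold. Rab3d had a log2 change of -0.53, lower at P10, with an adjusted p of 9.04e-05.

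Among transmitter receptors and channels 21 of 37 measured members were called higher and none lower (median 0.32). Drd4, a dopamine receptor of photoreceptors, rose from 93.8, 82.6, 100 and 94.8 to 850, 742, 632 and 293 (6.31-fold, adjusted p = 2.99e-12), with replicate 4 the lowest at P10. Gabrr1, the rho subunit of GABA receptors on bipolar cells, rose from 31.4, 36.2, 36.8 and 42.7 to 155, 140, 150 and 145 (4.04-fold, adjusted p = 2.96e-16). Cacnb2, a calcium channel subunit of photoreceptor terminals, rose 3.92-fold, and Atp1b2, a sodium pump subunit, 3.00-fold. A second Atp1b2 probe set rose by only 0.24, from 84.0 ± 6.04 to 99.5 ± 10.9 (mean ± SD, n = 4, adjusted p = 0.0313). Glrb, the beta subunit of glycine receptors, rose 2.84-fold, the sodium channel Scn1a 2.17-fold, the AMPA receptor subunit Gria2 1.77-fold and the potassium channel subunit Kcnab1 1.68-fold.

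Enzymes of energy metabolism came next. Of 22 measured glycolysis and glucose uptake genes 15 were called higher and 2 lower (median 0.37). Aldoc and Eno2, the aldolase and enolase forms of neural tissue, read 98.0, 118, 93.3 and 113, and 77.5, 98.4, 94.2 and 110 at P2. At P10 they read 575, 490, 470 and 544, and 494, 439, 469 and 464, which is 4.93-fold and 4.94-fold higher. Aldoa rose 2.48-fold, the phosphofructokinases Pfkp and Pfkl 1.98-fold and 1.46-fold, and Ldha, lactate dehydrogenase A, 1.86-fold. The glucose transporter gene Slc2a1 fell from 634 to 758 to 333 to 410 (change -0.93, adjusted p = 1.96e-10), and Hk1, hexokinase 1, fell from 734 to 1001 to 499 to 637 (change -0.63, adjusted p = 8.39e-06). Hk2, the hexokinase known from photoreceptors and named here after its values were seen, was not called: 104 to 136 at P2 and 105 to 129 at P10, beside a mean of 1422 at 2 months.

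Of 62 measured oxidative phosphorylation genes 23 were called higher and 2 lower (median 0.16). These were 37.1% and 3.23% of the list, beside 18.9% and 19.8% of all genes. Without P2 replicate 1 the counts were 19 and 3. Ckmt1, the mitochondrial creatine kinase, stood out with a rise from 30.2, 29.8, 31.5 and 31.3 to 183, 140, 163 and 185 (5.43-fold, adjusted p = 2.48e-16), although its second probe set was not called (50.9 ± 6.18 and 50.8 ± 4.94, mean ± SD, n = 4). The next were Slc25a4, which exchanges ADP and ATP (change 0.82), Cox6c of complex IV (0.76), the complex I subunits Ndufb2 (0.64), Ndufs1 (0.59), Ndufb9 (0.51) and Ndufb8 (0.45), and Sdha of complex II (0.48). The 2 members called lower lost the call when single arrays were left out. Atp5g2 (-0.19) had an adjusted p of 0.0626 to 0.0732 without P10 replicate 2 or 3 or P2 replicate 1, 3 or 4. It also had 0.0587 with quantile normalisation, 0.0657 with only the groups compared and 0.0774 with the replicate block on them. For the mean of its probe sets the adjusted p was 0.0654. Sdhb (-0.26) had 0.0547 and 0.0714 without P10 replicates 2 and 3 and 0.0940 without P2 replicate 4.

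Cholesterol and fatty acid synthesis genes fell: 15 of 25 measured members were called lower and 1 higher (median -0.44). Idi1, which makes the isoprenoid building block, fell from 379, 489, 413 and 458 to 140, 131, 111 and 141 (3.32-fold, adjusted p = 2.23e-13). Hmgcs1, Sqle, Fdps and Msmo1, enzymes of the same route, fell 2.16-fold, 2.05-fold, 1.88-fold and 1.85-fold. The desaturases Scd2 and Fads1 fell 1.96-fold and 1.81-fold and the elongase Elovl5 1.88-fold. Elovl2, which elongates the long fatty acids that become docosahexaenoic acid, rose from 44.3 to 48.0 to 59.0 to 84.6 (change 0.69, adjusted p = 0.00176). Outside the lists Cpt1a, which admits fatty acids to mitochondria, was among the 20 largest rises, from 124 to 162 to 764 to 912 (5.69-fold, adjusted p = 1.11e-18).

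Of 33 measured ribosomal protein genes 16 were called lower and none higher (median -0.26), led by Rps19 (2.11-fold lower) and Rps10 (1.99-fold), followed by Rps4x (1.64-fold), Rpl8 (1.60-fold), Rps3a1 (1.58-fold), Rps18 (1.57-fold), Rpl7a (1.49-fold) and Rpl6 (1.43-fold). These genes have many processed copies in the genome, and probe sets may not tell copies apart: the other 4 probe sets of Rps4x, with P2 means of 14.8 to 80.5, were not called (adjusted p = 0.421 for the mean of its probe sets).

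Of 28 measured apoptosis genes 5 were called lower (17.9%) and 4 higher (14.3%), with a median of -0.03. Both shares were below those of all genes, 19.8% lower and 18.9% higher, so the members' values are given singly. The caspases Casp2 and Casp6 fell 2.09-fold and 1.72-fold, Apaf1, the core of the apoptosome, 1.46-fold and Bcl2l11 (Bim) 1.30-fold. Casp2 read 441, 401, 450 and 441 at P2 and 209, 202, 199 and 218 at P10. Bcl2l2 (Bcl-w), a survival factor, rose by 0.33 (adjusted p = 0.00243). Bnip3 was called higher with overlapping ages (46.5 to 59.9 and 57.0 to 77.5) and had an adjusted p of 0.0603 without P10 replicate 3 and 0.0645 without P2 replicate 2. Cflar was called higher by a small margin (adjusted p = 0.0376) and lost the call without any of 7 single arrays, at 0.0509 to 0.128, that is, every one but P10 replicate 1. With a pseudocount added its adjusted p was 0.0503. Xiap was not called (change 0.47, adjusted p = 0.169), but was called higher with only the groups compared (0.0163) and with the replicate block on them (5.93e-04).

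Extracellular matrix genes rose in 13 and fell in 10 of 46 measured members (median 0.10), that is 28.3% and 21.7% beside 18.9% and 19.8% of all genes. Sparcl1, made by glia, and Sparc, a matrix protein of vessels and glia, rose 3.00-fold and 2.95-fold. The collagen IV chains Col4a1 and Col4a2 rose 1.95-fold and 1.66-fold, the laminin chain Lama4 1.76-fold and the proteoglycan Bgn 1.75-fold. The protease Mmp14 and the laminin subunit Lamb2 fell 1.73-fold and 1.70-fold.

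Markers of the other retinal cell types were measured beside these lists. Bipolar cell markers rose in 7 of 8 measured members (median 1.08). Car8 rose from 23.6, 27.8, 29.0 and 26.1 to 83.0, 90.7, 111 and 85.3 (3.46-fold, adjusted p = 2.19e-09). Isl1, a factor of ON bipolar cells also found in ganglion and amacrine cells, rose from 57.0, 55.0, 56.7 and 55.4 to 187, 155, 159 and 181 (3.04-fold, adjusted p = 1.26e-13). Rgs11 and Gnao1, which belong to the glutamate receptor cascade of ON bipolar cells, rose 2.41-fold and 2.25-fold, Pcp2 1.98-fold and Prkca, the marker of rod bipolar cells, 1.63-fold. Of 4 other Gnao1 probe sets 2 were called higher and 2 were not called. The channel gene Trpm1 changed by 0.32 with overlapping ages (adjusted p = 0.0711 without P10 replicate 3 and 0.0527 without P2 replicate 2), and Tpbg was not called.

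Amacrine and horizontal cell markers rose in 12 of 23 and fell in 3 (median 0.30). These were 52.2% and 13.0% of the list, beside 18.9% and 19.8% of all genes. The calcium-binding protein Calb1 rose 2.79-fold and Calb2 1.76-fold. Gad1, which makes GABA, and Slc32a1, which loads GABA and glycine into vesicles, rose 2.32-fold and 2.31-fold, and the glycine transporter Slc6a9 1.88-fold. Prox1, a factor of horizontal and AII amacrine cells, rose 2.09-fold, Septin4 2.24-fold and the neuropeptide Npy 2.22-fold. Tfap2a and Meis2, transcription factors of amacrine cells, fell by 0.63 and 0.54 on the log2 scale. Gad2, dim at both ages, changed by -0.32 with overlap. Its adjusted p was 0.122, 0.126 and 0.0956 without P10 replicates 2, 3 and 4. Without P2 replicates 1, 2 and 3 it was 0.118, 0.167 and 0.0504, and with a pseudocount added it was 0.0714.

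Ganglion cell markers rose in 5 of 13 and fell in 3 (median -0.05), that is 38.5% and 23.1% beside 18.9% and 19.8% of all genes. The raised ones were the neurofilaments Nefh (2.52-fold), Nefl (1.66-fold) and Nefm (1.41-fold), the surface protein Thy1 (1.99-fold) and Uchl1 (1.22-fold). Rbpms, an RNA-binding marker of ganglion cells, fell 1.64-fold and the factor Eomes 1.57-fold. Elavl2 changed by -0.31, and its call was lost (adjusted p = 0.0542 to 0.141) without any single array other than P2 replicate 4. With a pseudocount added its adjusted p was 0.0670.

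Müller glia markers rose in 10 of 17 and fell in 3 (median 0.48). These were 58.8% and 17.6% of the list, beside 18.9% and 19.8% of all genes. Aqp4, the water channel, rose from 17.2, 17.9, 15.7 and 18.8, near the yeast control level, to 66.4, 67.0, 70.7 and 43.5 (3.50-fold, adjusted p = 3.16e-12). Rlbp1, the retinal-binding protein of the visual cycle in glia, rose from 156, 167, 129 and 155 to 543, 474, 490 and 504 (3.33-fold, adjusted p = 1.59e-16). Clu (clusterin) rose 3.28-fold, the carbonic anhydrases Car14 and Car2 2.94-fold and 2.11-fold, Apoe 2.36-fold, Cav1 1.84-fold, and Glul, glutamine synthetase, 1.40-fold. The second Glul probe set was not called (171 ± 27.6 at P2 and 192 ± 38.8 at P10, mean ± SD, n = 4, adjusted p = 0.382). The small rises of Crym (change 0.48) and Gfap (0.38, ages overlapping) were also called. Dkk3, a secreted Wnt modulator, fell from 1450, 1528, 1448 and 1446 to 778, 550, 531 and 633 (2.38-fold), and Cp (ceruloplasmin) fell 1.73-fold. Gpx3 changed by -0.24 and lost its call (adjusted p = 0.0730 to 0.125) without P10 replicate 1, 2 or 3 or P2 replicate 1 or 2. Vim, which progenitors and glia share, was not called (change 0.13), except with array weights (adjusted p = 0.0257).

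**Figure D4:**
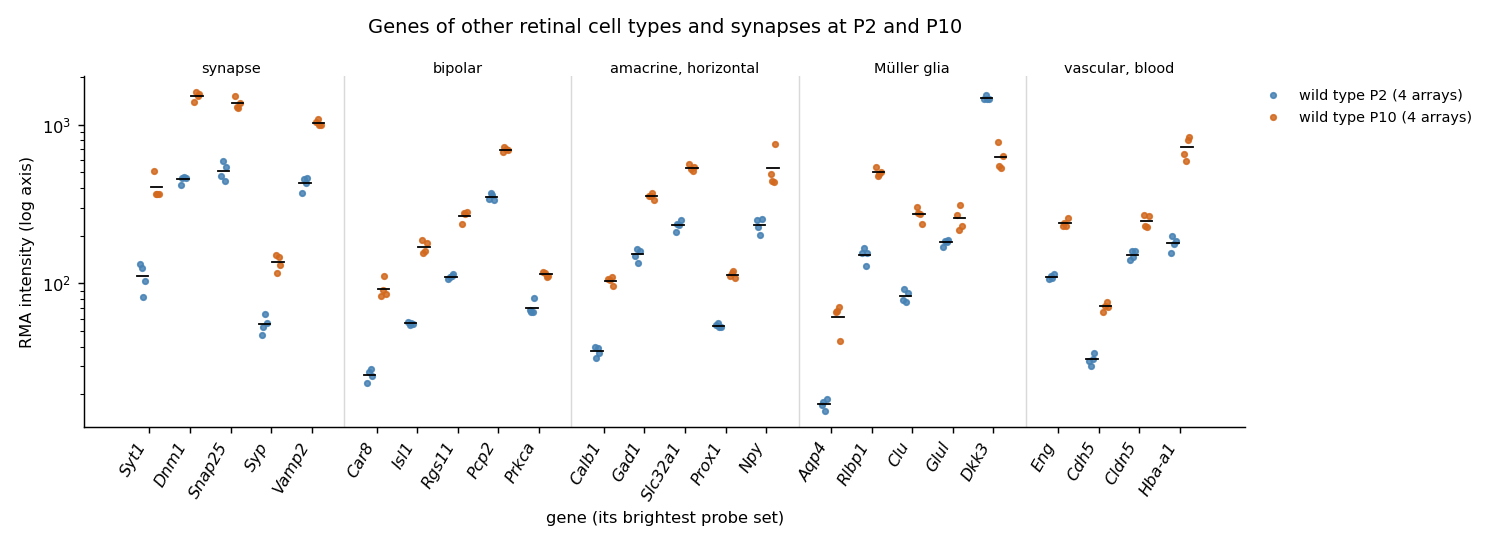
RMA intensity (log axis) of synapse genes and of markers of bipolar, amacrine, horizontal, glial, vascular and blood cells on the 4 P2 and 4 P10 wild-type arrays; each point is 1 array and each bar a group mean. P10 lies above P2 in every gene drawn except Dkk3 (1446 to 1528 against 531 to 778).

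Genes of cells outside the neural retina moved with age as well, and their part in the results above was not tested. The summed intensity of 8 blood genes was 462 to 499 at P2 and 977 to 1212 at P10. That of 19 vascular genes was 1169 to 1230 and 1612 to 1627, that of 16 microglia and macrophage genes 934 to 998 and 1141 to 1328, and that of 9 pigment epithelium genes 431 to 463 and 487 to 606. In each of these 4 sums the ages were apart (exact permutation p = 0.0286, two-sided, the smallest that 4 against 4 arrays can give; 0.0644 after adjustment over 9 array measures). Called higher were 57.9% of vascular, 50.0% of microglia, 37.5% of blood and 33.3% of pigment epithelium genes, beside 18.9% of all genes. Called lower were 5.26% of vascular genes and none of the others, beside 19.8% of all genes. Vascular markers were called higher in 11 of 19 members and lower in 1. The endothelial genes Eng, Cdh5 and Cldn5 rose 2.17-fold, 2.16-fold and 1.64-fold, and the pericyte gene Rgs5 2.07-fold. Kdr, the VEGF receptor, changed by -0.32 and lost its call without P10 replicates 2, 3 or 4 or P2 replicates 1, 2 or 4 (adjusted p = 0.0508 to 0.0949). Quantile normalisation gave Kdr an adjusted p of 0.0668. Hba-a1, adult alpha-globin, rose from 156 to 198 to 590 to 833 (4.02-fold), and Hbb-b2 rose from 13.7 to 23.0 to 35.5 to 72.2. The complement genes C1qa, C1qb and C1qc of microglia rose 1.64-fold, 1.55-fold and 1.51-fold and the protease gene Ctss 1.63-fold, among 8 of 16 members called higher. In the pigment epithelium list Dct (1.65-fold), Ttr (1.36-fold) and Rgr (1.28-fold; adjusted p = 0.0618 without P10 replicate 3) were called of 9, while Tyr, the defining enzyme of pigment synthesis, had means of 9.24 and 9.44, in the range of the yeast controls. No lens gene was called among 11; the lens median was -0.17, and 0.16 without P2 replicate 1. Cryaa, alpha-A crystallin, read 358 on P2 replicate 1 and 105 to 125 on the other P2 arrays.

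Other genes among the 20 largest rises lay outside the lists. Ppp2r2b, a regulatory subunit of protein phosphatase 2A, rose from 285, 288, 274 and 286 to 1903, 1595, 1460 and 1852 (5.98-fold, adjusted p = 6.04e-18). Vtn (vitronectin) rose 5.40-fold, Pla2r1, a receptor of secreted phospholipase, 5.28-fold from a level near the yeast controls (10.4 to 13.0), and the cell-surface nucleotidase Nt5e 4.98-fold.

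The wild-type change was then compared with that of the Nrl-/- retina, which is known to form cone-like cells in place of rods and whose 8 arrays are separate from the wild-type ones. In the knockout 2216 probe sets were called higher from P2 to P10 (17.8%) and 1799 lower (14.5%), and by gene 20.1% were higher and 16.4% lower. The probe sets called higher in both genotypes numbered 1462, which is 71.9% of the wild-type and 66.0% of the knockout rises. Those called lower in both numbered 1551, which is 72.0% of the wild-type and 86.2% of the knockout falls. Opposite calls were found in 25. Across probe sets the changes of the genotypes had a Pearson r of 0.88, as a description, since probe sets are not independent. The difference between the changes itself was called in 276 probe sets (2.22%), or 224 genes (2.71%), with the more positive change in wild type in 129 probe sets and in the knockout in 147. Array weights gave 486 such probe sets and the replicate block over all 24 arrays 432.

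**Figure D5:**
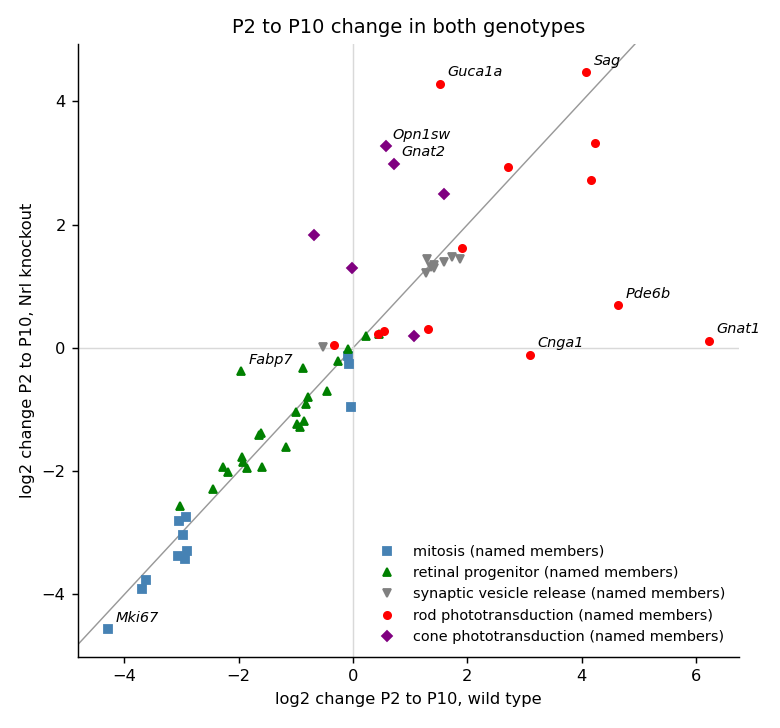
Log2 change from P2 to P10 in wild type (horizontal) against the Nrl knockout (vertical) for the named members of 5 gene lists; each point is 1 gene and the grey diagonal marks equal change. Most mitosis, progenitor and synapse genes lie near the diagonal, but the progenitor gene Fabp7 lies above it and the mitosis gene Pttg1 below it. Gnat1, Pde6b and Cnga1 lie far below the diagonal and the cone genes Opn1sw and Gnat2 above it.

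Rod and outer segment genes held the 4 largest positive differences. Of the 13 measured rod phototransduction genes the difference was called in 7, in 6 of them with the larger rise in wild type. Gnat1 stayed at 12.9 ± 2.09 and 14.6 ± 5.70 in the knockout (mean ± SD, n = 4), and the difference of the changes was 6.10 ± 0.50 (adjusted p = 1.37e-09). Pde6b went from 17.7 ± 2.58 to 28.8 ± 7.13 in the knockout (difference 3.96 ± 0.18, adjusted p = 3.14e-15) and Cnga1 from 17.5 ± 1.52 to 16.2 ± 0.942 (difference 3.20 ± 0.14, adjusted p = 3.14e-15). For Rcvrn, Pde6a and Pde6g the differences were 1.45, 1.01 and 0.90. Sag and Pdc, by contrast, rose by 4.48 and 2.94 in the knockout beside 4.08 and 2.71 in wild type, with differences that were not called (-0.41 ± 0.25 and -0.23, adjusted p = 0.643 and 0.662). Their knockout means at P2 and P10 were 45.5 and 984 for Sag and 83.8 and 636 for Pdc. Among outer segment genes the differences of Reep6 (3.11), Rom1 (1.12), Abca4 (0.96) and Prom1 (0.88) were called. Of the other genes with the largest positive differences, Drd4 had 1.96, Pla2r1 1.69, Alpl (alkaline phosphatase) 1.67 and Cdr2 1.67, and Cdr2 fell in the knockout by 0.68.

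Cone genes were among the largest negative differences. The difference was called in all 6 measured cone genes, in 5 with the larger rise in the knockout. Opn1sw rose from 403 ± 26.3 to 3902 ± 299 in the knockout (difference -2.70 ± 0.17, adjusted p = 1.21e-11), Gnat2 from 118 ± 11.4 to 935 ± 52.4 (difference -2.28) and Gngt2, which fell in wild type, from 200 ± 17.9 to 709 ± 24.1 (difference -2.52). Cnga3 and Gnb3 had differences of -1.31 and -0.91. Opn1mw went the other way (difference 0.87, adjusted p = 0.0477), a call that was lost (adjusted p = 0.0540 to 0.127) without wild-type P10 replicate 1, 2 or 3, wild-type P2 replicate 2, 3 or 4, knockout P10 replicate 2, 3 or 4 or knockout P2 replicate 2, 3 or 4. It was also lost with median centring (adjusted p = 0.0529), a pseudocount added (0.0811) and trended and robust variances (0.0845). Guca1a, which rods and cones share, rose by 4.29 in the knockout and 1.52 in wild type (difference -2.77). The remaining genes furthest in this direction were Gas2 (-3.37; 43.8 ± 11.7 to 266 ± 91.1 in the knockout), Wwc1 (-2.29), Clca1 (-2.0) and Gzmm, a granule protease gene (-1.82).

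In the proliferation and synapse lists the difference was called for 3 of 40 mitosis genes, 1 of 44 replication genes, 2 of 35 progenitor genes and 1 of 28 vesicle release genes, beside 2.71% of all genes. Among mitosis genes 37 fell in wild type and 39 in the knockout, with medians of -2.15 and -2.41. Ccnd1 fell from a mean of 2134 to 118 in the knockout, beside a difference of -0.18 that was not called (adjusted p = 0.762). Called differences in these lists included Fabp7, which fell by 1.96 in wild type and by 0.37 in the knockout (difference -1.59, adjusted p = 2.59e-06), Rax (difference -0.55, adjusted p = 0.00643) and Pttg1, which fell by 0.96 in the knockout and was not called in wild type (difference 0.94, adjusted p = 9.96e-07). In the glia list Apoe rose by 2.61 in the knockout and 1.24 in wild type (difference -1.38, adjusted p = 3.15e-08). Col4a1 and Col4a2 rose in wild type by 0.96 and 0.73 and were not called in the knockout (differences 1.02 and 0.59). Transcription factors with a called difference included Nrl itself (1.20) and Rxrg (-1.38), which rose by 1.00 in the knockout and fell in wild type.

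The 2-month wild-type retina shows where these levels went later; because it would be compared with the same P10 arrays, levels are given side by side with no test. Means at P2, P10 and 2 months were 16.8, 1249 and 5386 for Gnat1, 17.9, 154 and 314 for Cnga1, and 105, 286 and 3475 for Guca1a. For Sag they were 245, 4037 and 5322, and for Rcvrn 60.4, 1091 and 1298. Crx stood at 621, 1893 and 1619 and Opn1sw at 320, 464 and 762. Among cell cycle genes the means were 2150, 105 and 75.3 for Ccnd1 and 436, 52.0 and 48.5 for Cdk1. Some genes had their highest mean at P10: Isl1 had means of 56.0, 171 and 81.6, Npy 234, 531 and 211, Sparc 63.4, 187 and 97.2, Cldn5 151, 248 and 116, and C1qa 66.2, 109 and 67.7. Mef2c moved mainly after P10, with 22.1, 28.0 and 151.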

How the data were processed

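Whole-retina RNA of 24 samples was measured on Affymetrix arrays. Per the submitters' processing notes the authors used RMA; the deposited table holds linear intensity values for 12488 probe sets, from which 66 array controls were left out. Whether all arrays were normalised together is not given in the sources used here. Values were taken to log2 and fitted with limma 3.58.1 in R 4.3.3 over all 24 arrays and 6 group means, with Benjamini-Hochberg adjustment. The method was tested on simulated data and recovered 86% of changes of 0.5 and 100% of larger ones (log2) for wild-type P10 minus P2. It made 5 false calls there. The simulated noise was normal and independent between arrays, so these rates need not hold for the real arrays. Tables and figures used Python 3.11.15, pandas 2.3.3 and matplotlib 3.10.9. A gene was its brightest probe set with exactly 1 symbol in GEO's platform annotation (10833 probe sets had 1 symbol, 396 several, 1193 none). Named were the 20 largest non-overlapping rises and falls, members of the photoreceptor, progenitor, regulator and cell type lists, the 8 largest changes of other lists with members against the trend, and the 8 largest genotype differences each way. The comparison and the 27 lists were chosen with earlier results of these data known. The number of arrays limits the precision. Alternatives were normalisation, centring, a pseudocount, dim probe sets, array weights, trended and robust variances, fewer arrays, a replicate block, a stricter threshold, the mean of a gene's probe sets and leaving out each array.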

Additional observations from a re-analysis of the deposited data

Results flagged for a closer look

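In groups of 4 arrays a value was singled out when its gap to the nearest of the others, divided by the group's range, passed Dixon's 95% critical value. This held in 37 of 532 groups of named genes (6.95%); chance gives about 1 in 20 groups. On wild-type P2 replicate 1 it was Nrl (61.5 against 59.9 to 60.1), Hes6 (846 against 1020 to 1030), Cdkn1c (182 against 211 to 216), H2az1 (400 against 510 to 517), Hmgb3 (2048 against 2197 to 2224), Dnm1 (418 against 463 to 470), Nsf (265 against 192 to 202), Hk1 (734 against 965 to 1001), Septin4 (222 against 269 to 275) and Cryaa (358 against 105 to 125). On wild-type P2 replicate 2 it was Dkk3 (1528 against 1446 to 1450). On wild-type P2 replicate 3 it was Kif3a (39.3 against 51.6 to 53.5), Rora (49.2 against 53.5 to 53.9) and Cdk2 (163 against 196 to 198). On wild-type P2 replicate 4 it was Mcm5 (793 against 702 to 715), E2f3 (18.6 against 24.6 to 25.7), Pfkp (149 against 131 to 134) and Prkca (80.5 against 65.7 to 67.7). On wild-type P10 replicate 1 it was Pde6g (3979 against 3479 to 3517), Opn1sw (529 against 438 to 445), Uhrf1 (70.8 against 80.3 to 80.7), E2f3 (32.4 against 26.7 to 27.1), Syt1 (514 against 367 to 368), Cacnb2 (182 against 121 to 131), Slc25a4 (1884 against 1711 to 1738), Xiap (82.2 against 46.7 to 52.5) and Gad2 (20.4 against 15.5 to 16). On wild-type P10 replicate 2 it was Wwc1 (71.3 against 88.9 to 91.7). On wild-type P10 replicate 3 it was Six3 (79.0 against 91.0 to 92.9) and Cox6c (1304 against 1184 to 1199). On wild-type P10 replicate 4 it was Prdm1 (157 against 111 to 117), Hes6 (168 against 102 to 113), Gadd45g (94.2 against 77.1 to 79.8), Efnb2 (131 against 115 to 116), Scd2 (641 against 566 to 569), Fdps (513 against 408 to 425) and Aqp4 (43.5 against 66.4 to 70.7). 

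The wild-type change from P2 to P10 differed from the knockout change in 45 of the 266 named genes, by limma's test of the difference with Benjamini-Hochberg adjustment over all probe sets. Over all genes the share was 2.71%; the named genes include 16 chosen for the largest such differences, so the 2 shares are not to be compared. More positive in wild type were Gnat1 (6.10), Pde6b (3.96), Cnga1 (3.20), Reep6 (3.11), Drd4 (1.96), Pla2r1 (1.69), Cdr2 (1.67), Alpl (1.67), Rcvrn (1.45) and Cacnb2 (1.36), as log2 differences. Next in that direction were Nt5e (1.27), Nrl (1.20), Ppp2r2b (1.14), Rom1 (1.12), Col4a1 (1.02), Pde6a (1.01), Abca4 (0.96), Pttg1 (0.94), Pde6g (0.90) and Prom1 (0.88), as log2 differences. Next in that direction were Opn1mw (0.87), Col4a2 (0.59), Rgs5 (0.56), Glul (0.56), Cpt1a (0.54), Neurod1 (0.53), Aldoa (0.51) and Hmgn1 (0.44), as log2 differences. More positive in the knockout were Gas2 (-3.37), Guca1a (-2.77), Opn1sw (-2.70), Gngt2 (-2.52), Wwc1 (-2.29), Gnat2 (-2.28), Clca1 (-2.0), Gzmm (-1.82), Fabp7 (-1.59) and Rxrg (-1.38), as log2 differences. Next in that direction were Apoe (-1.38), Cnga3 (-1.31), Elovl2 (-1.12), Gnb3 (-0.91), Hk2 (-0.60), Rax (-0.55) and Rab3d (-0.54), as log2 differences. Of these, 8 lost the call under some alternative: Opn1mw, Hk2, Rab3d, Hmgn1, Aldoa, Neurod1, Glul and Cpt1a.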

How the results depend on the processing

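Of the 266 named genes 247 were called. Over up to 18 alternatives per gene 228 kept the call in each setting run, 19 lost it in at least one (17 of these when 1 array was left out) and none reversed; 4 others were left out as dim in the setting that drops dim probe sets. Of the 19 named genes not called, 6 gained a call in some setting. Other probe sets did not all share the call of the brightest. Those that did could differ in the size of the change, as for Ccnd1, Pde6b and Atp1b2. Beside the genes given above, another probe set was not called for Rora, Mef2c, Tbx2, Kif3a, Hes5, Nes, Six3, Pold1, Mycn and Anp32e. The same held for Stmn1, Stmn3, Gria2, Kcnab1, Cox6c, Ndufb2, Fdps, Atp5g2, Ift88, Lama4, Bgn and Bcl2l11. It held too for Rgs11, Apoe, Cav1, Gfap, C1qb, Pclaf, Gas2 and Wwc1. Leaving out single arrays gave 3670 to 4253 called probe sets from P2 to P10, with 1733 to 2251 higher, 1904 to 2202 lower, 251 to 276 at least 2-fold higher and 324 to 356 at least 2-fold lower. For the difference between genotypes it gave 216 to 309, with 107 to 150 more positive in wild type, 107 to 186 more positive in the knockout, and 30 to 36 and 29 to 33 of at least 2-fold. With array weights 3273 probe sets were called higher and 2415 lower, and the genotype difference was called in 486 (242 and 244). At an adjusted p under 0.01 the genotype difference was called in 174, of which 87 were more positive in the knockout. Quantile normalisation gave 4442 calls (2228 higher, 2214 lower) and median centring 4214. Same-numbered wild-type P2 and P10 arrays had correlations of their deviations of 0.09, -0.25, 0.20 and 0.27, and 2 of 4 matched best with their own number, so the numbers were not taken to pair them. In the knockout these were 0.37, 0.19, 0.34 and 0.18, with 3 of 4 best matched. A replicate block among those 8 knockout arrays, chosen after seeing the data, gave 316 called genotype differences, and 2368 higher and 1873 lower in the knockout. With the replicate block 4140 probe sets were called on the arrays compared and 4688 over all 24 arrays. For the genotype difference the replicate block gave 302 within each age and 432 over all 24 arrays (199 and 233). The cause of these differences was not tested. Intensities near those of the yeast controls limit the fold sizes of dim genes.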
